A study of Mus musculus with 9 samples.

Results

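The Reg genes encode small secreted lectins of the C-type fold, and 6 of them, Reg1, Reg2, Reg3a, Reg3b, Reg3d and Reg3g, were followed by gene symbol through the count table of mouse pancreatic islets, where they are 6 of 23329 rows. All 6 passed the filter on low counts that left 12402 genes for testing. Polyadenylated RNA came from islets of male mice, in 5 libraries titled as mutants and given the genotype Pdx1A4, and in 4 libraries titled as controls and given the genotype Pdx1+/-. The labels do not explain Pdx1A4, and the Pdx1+/- controls are themselves heterozygous for Pdx1, the homeodomain transcription factor needed for pancreas formation and beta cell function, so no unaltered wild type entered the comparison. Whether each library was made from a different animal is not stated, so n counts libraries and the spread between libraries may be technical. The 6 genes were chosen with earlier results of this same contrast in view, so their levels in mutant and control libraries are given as a description, without a test.

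Reg proteins take their name from regenerating islets, in which the first of them was found in the rat. In the healthy pancreas they are made mainly by acinar cells, the exocrine cells that secrete digestive enzymes, and they are known to be induced in acinar cells by pancreatitis and in intestinal epithelium by microbes, through the cytokines IL-6 and IL-22 and the transcription factor STAT3. Reg1 is the murine lithostathine, or pancreatic stone protein, and Reg2 its close paralog. Reg3b is pancreatitis-associated protein, Reg3g an antibacterial lectin of the mouse gut, Reg3d a relative of the hamster islet neogenesis-associated protein, and Reg3a a further member of the same subfamily.

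The 6 genes lie side by side on chromosome 6 (build GRCm38, positions from RefSeq), in the order Reg3b (78370885 to 78373466), Reg3d (78375874 to 78378865), Reg3a (78380709 to 78383839), Reg2 (78405155 to 78408099), Reg1 (78425983 to 78428668) and Reg3g (78466269 to 78468874). Reg3d and Reg3g lie on the minus strand and the others on the plus strand, and no other gene of the GENCODE M21 annotation overlapped any of them. Because close paralogs can share reads, the longest protein-coding GENCODE M21 transcripts, 698 to 904 bases long, were compared. The closest pair, Reg1 and Reg2, was identical at 81.5% of 674 aligned bases, and Reg3a and Reg3b at 74.1% of 767. The longest stretch without a difference between any pair was 35 bases, between Reg3b and Reg3g, and it was 19 bases between Reg1 and Reg2. Of all stretches of 50 bases in each transcript, 0 occurred in another member, so reads of that length or longer without errors belong to 1 of the transcripts compared. The sources used here do not give the read length.

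The promoters are shown because the genes, though of very different abundance, had broadly similar patterns over the libraries. Reg3a was an exception in that it was highest in another mutant library than the rest. Whether the promoters have a part in these patterns was not tested. The lines give the 250 bases before each RefSeq start on the gene's own strand, 5′ to 3′, from the RefSeq promoter table of GRCm38.p6. Capitals mark CACCTG, an E-box as bound by basic helix-loop-helix factors, TGGGAA, a core bound by RBPJ and its acinar relative RBPJL, and TGCCAA, a core recognised by nuclear factor I, each read on either strand. The capital letters of these 3 motifs do not overlap each other.
Reg1 (chr6:78425733-78425982, + strand): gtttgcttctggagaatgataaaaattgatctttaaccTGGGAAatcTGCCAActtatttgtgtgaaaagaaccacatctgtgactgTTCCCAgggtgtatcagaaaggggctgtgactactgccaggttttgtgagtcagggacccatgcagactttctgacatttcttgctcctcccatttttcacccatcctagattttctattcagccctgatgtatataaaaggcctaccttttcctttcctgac
Reg2 (chr6:78404905-78405154, + strand): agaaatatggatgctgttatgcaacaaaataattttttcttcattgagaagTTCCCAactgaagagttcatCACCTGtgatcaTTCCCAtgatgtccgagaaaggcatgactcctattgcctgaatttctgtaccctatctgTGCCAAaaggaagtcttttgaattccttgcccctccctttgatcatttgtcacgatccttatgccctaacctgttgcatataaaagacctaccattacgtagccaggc
Reg3a (chr6:78380459-78380708, + strand): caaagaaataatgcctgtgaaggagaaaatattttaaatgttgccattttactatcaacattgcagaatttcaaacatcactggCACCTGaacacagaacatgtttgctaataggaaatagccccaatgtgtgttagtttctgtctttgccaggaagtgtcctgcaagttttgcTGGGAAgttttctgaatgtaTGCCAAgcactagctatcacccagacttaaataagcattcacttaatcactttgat
Reg3b (chr6:78370635-78370884, + strand): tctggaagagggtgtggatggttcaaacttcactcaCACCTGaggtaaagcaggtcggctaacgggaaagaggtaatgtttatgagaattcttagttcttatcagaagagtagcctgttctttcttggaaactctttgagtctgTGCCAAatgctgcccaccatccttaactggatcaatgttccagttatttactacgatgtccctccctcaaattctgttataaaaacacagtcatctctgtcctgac
Reg3d (chr6:78378866-78379115, - strand): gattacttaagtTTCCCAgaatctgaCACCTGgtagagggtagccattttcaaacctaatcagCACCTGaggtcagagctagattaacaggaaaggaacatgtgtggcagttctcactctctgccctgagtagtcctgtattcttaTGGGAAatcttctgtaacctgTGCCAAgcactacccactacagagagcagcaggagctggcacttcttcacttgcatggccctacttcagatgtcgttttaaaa
Reg3g (chr6:78468875-78469124, - strand): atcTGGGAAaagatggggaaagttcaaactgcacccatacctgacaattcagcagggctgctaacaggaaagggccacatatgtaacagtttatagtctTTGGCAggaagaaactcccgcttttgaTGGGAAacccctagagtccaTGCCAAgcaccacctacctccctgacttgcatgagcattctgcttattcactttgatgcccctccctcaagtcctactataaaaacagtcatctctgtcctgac

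TGCCAA, a motif picked after the sequences were seen, stood in all 6 promoters, against 12.3% of the 32851 promoters of the same length in the table. TGGGAA was found in 5 of them, all but Reg3b, against 21.6% of all promoters, and CACCTG in 4, all but Reg1 and Reg3g, against 17.2%. The TATA motif TATAAA stood between positions -30 and -22 from the start in Reg1, Reg2, Reg3b and Reg3g, the 4 most abundant members, and in 12.4% of all promoters at any position. The STAT motif TTCNNNGAA occurred in Reg3b, where it read TTCTTGGAA, and in Reg3d, where it read TTCCCAGAA and overlapped a reverse TGGGAA, against 7.02% of all promoters. CAGCTG, the circadian E-box CACGTG and the homeodomain motif TAATTA were found in 0 of the 6, against 13.0%, 6.02% and 4.84% of all promoters. The NF-kB consensus occurred in 1 of them, Reg3g, where it overlapped a TGGGAA, against 7.25%. The 6 promoters belong to neighbouring paralogs and are not independent of each other, and Reg3b and Reg3g share an identical run of 20 bases. Whether the motifs come from a shared ancestor was not tested. A match of letters does not show that a factor binds, and a missing one says nothing of the factor.

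In all 6 genes each of the 5 mutant libraries lay above each of the 4 control libraries. In the whole table this held for 18.5% of the 12402 tested genes, and since the members were chosen on this contrast nothing is read from their count. Together the 6 genes took 1.37%, 7.56%, 6.44%, 2.99% and 2.15% of all counts in mutants 1 to 5, against 0.483%, 0.596%, 0.932% and 0.372% in controls 1 to 4. For the highest share, that of mutant 2, the 95% Wilson interval is 7.55% to 7.58% and reflects counting error alone. Their mean share was 4.10% ± 2.74 in mutants and 0.596% ± 0.242 in controls, where ± is the SD over 5 mutant or 4 control libraries, as for every mean here. Their summed level in CPM, the count scaled to a common library size, was in mutants 9.07 times the control mean. Mutants 2 and 3 weigh heavily in this figure, and without them it was 4.36 times at the same scaling.

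**Figure D1:**
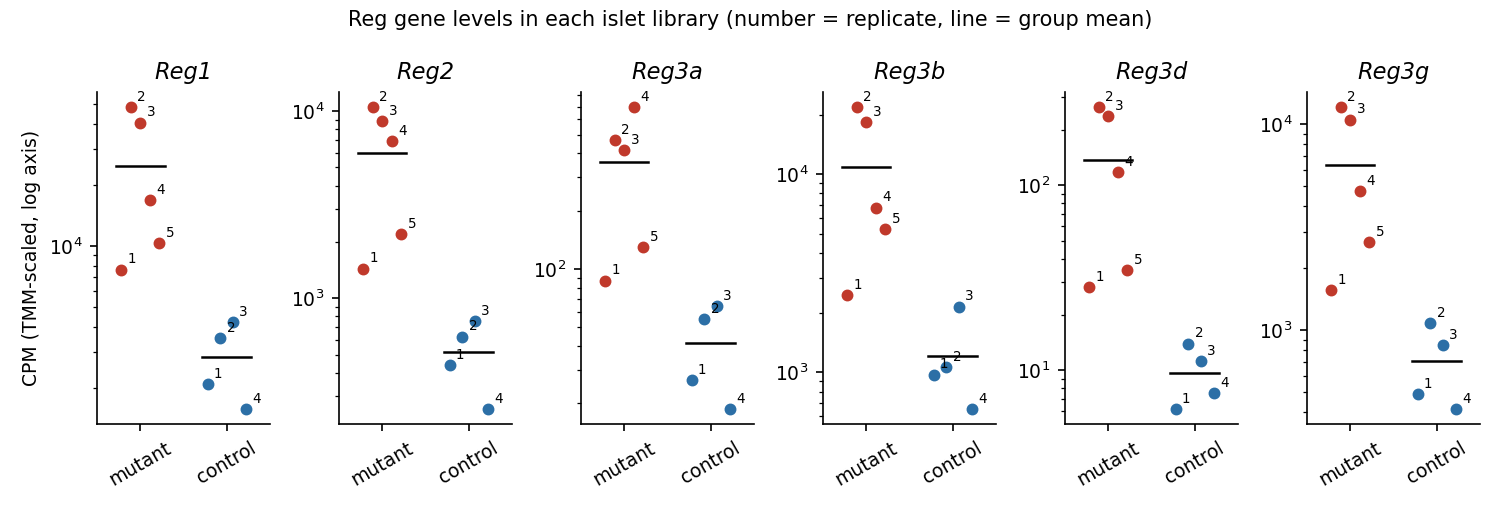
Level of each Reg gene in every library, as CPM on a log axis, with mutant libraries (red) to the left of control libraries (blue), the replicate number beside each point and a line at the group mean. In each panel the 5 mutant libraries lie above the 4 control libraries, and mutants 2 and 3 lie highest except for Reg3a, where mutant 4 does.

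Reg1, the lithostathine gene, held about as many counts as the other members together. It had 7635, 48268, 40520, 16754 and 10360 CPM in mutants 1 to 5, against 2086, 3527, 4229 and 1571 CPM in controls 1 to 4. Mutants 2 and 3 stood far above the rest, and the lowest mutant, mutant 1, was 1.81-fold above the highest control. The log2 fold change came to 3.11 ± 0.66 (SE), and by count Reg1 ranked 5th of all genes in mutant 2. Its paralog Reg2 had 1439, 10512, 8877, 6923 and 2200 CPM in mutants 1 to 5, against 440, 623, 754 and 255 CPM in controls 1 to 4. Here mutant 4 came close to mutants 2 and 3, and the log2 fold change came to 3.53 ± 0.66 (SE).

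Reg3b, the pancreatitis-associated protein gene, had 2447, 21816, 18349, 6787 and 5287 CPM in mutants 1 to 5, against 975, 1063, 2145 and 652 CPM in controls 1 to 4. It was the member with the narrowest gap between the groups, since mutant 1 lay 1.14-fold above control 3, and its log2 fold change came to 3.18 ± 0.70 (SE). The antibacterial lectin gene Reg3g had 1568, 12111, 10516, 4737 and 2691 CPM in mutants 1 to 5, against 491, 1082, 848 and 415 CPM in controls 1 to 4. Control 2 was the highest control for Reg3g and control 3 for Reg3b, so that the count ratio of Reg3b to Reg3g ran from 1.43 to 1.96 in mutants and from 0.982 to 2.53 in controls. Reg3g had a log2 fold change of 3.16 ± 0.66 (SE).

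The remaining members were the least abundant. Reg3d, the relative of the islet neogenesis-associated protein, had 28.1, 266, 238, 118 and 34.8 CPM in mutants 1 to 5, against 6.15, 13.9, 11.2 and 7.49 CPM in controls 1 to 4. Its log2 fold change, 3.82 ± 0.74 (SE), was the highest of the 6 estimates, and that of Reg1 was the lowest. Both come from the same libraries, so this SE does not measure the error of their difference, which was not tested. Reg3a had 86.9, 469, 415, 695 and 130 CPM in mutants 1 to 5, against 26.4, 55.0, 64.3 and 18.7 CPM in controls 1 to 4. It was highest in mutant 4, unlike the other members, all of which were highest in mutant 2, and its log2 fold change came to 3.13 ± 0.67 (SE).

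Per kilobase of transcript, Reg1 was the most abundant member and Reg3a and Reg3d the least abundant in all 9 libraries. Its level was 27331 ± 20440 CPM per kilobase in mutants and 3156 ± 1367 in controls. Reg3b followed with 13968 ± 10959 in mutants and 1544 ± 828 in controls, and Reg2 and Reg3g came next. The level of Reg2 was 8582 ± 5763 CPM per kilobase in mutants and 742 ± 312 in controls, and that of Reg3g was 8203 ± 6132 in mutants and 920 ± 405 in controls. The means of these neighbours differed by less than the spread between libraries, while within libraries Reg3g lay above Reg2 in 3 of 5 mutants and in 4 of 4 controls. Reg3a, with 435 ± 306 in mutants and 49.8 ± 26.7 in controls, stood clear below them. Reg3d had 175 ± 142 CPM per kilobase in mutants and 12.4 ± 4.52 in controls. In 6 libraries the order was Reg1, Reg3b, Reg3g, Reg2, Reg3a and Reg3d. Of the other 3, mutant 1 had Reg2 just above Reg3g, mutant 4 had Reg2 above Reg3b, and control 2 had Reg3g above Reg3b.

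The share of each member in the family overlapped between the groups. Reg1 held 51.5% ± 4.09 of all Reg counts in mutants and 53.4% ± 1.58 in controls, and Reg3b held 21.9% ± 3.07 in mutants and 22.5% ± 4.23 in controls. The share of Reg3g was 12.9% ± 0.572 in mutants and 13.5% ± 2.78 in controls. Reg2 held 10.9%, 11.2%, 11.2%, 19.2% and 10.6% in mutants 1 to 5, against 10.9%, 9.79%, 9.37% and 8.74% in controls 1 to 4. Reg3a held 0.658%, 0.501%, 0.526%, 1.93% and 0.629% in mutants 1 to 5, against 0.656%, 0.865%, 0.799% and 0.639% in controls 1 to 4. Mutant 4 thus stood apart from all other libraries in the shares of both Reg2 and Reg3a, which are neighbours on the chromosome and 66.7% identical in transcript sequence. The share of Reg3d was 0.259% ± 0.0661 in mutants and 0.192% ± 0.0552 in controls.

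**Figure D2:**
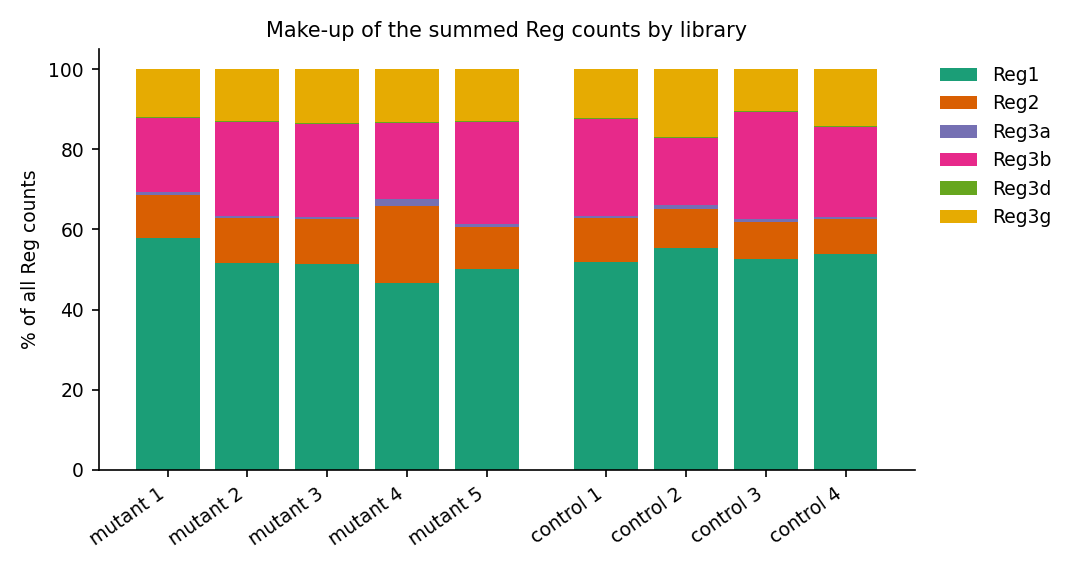
Percentage of all Reg counts held by each of the 6 genes, as stacked bars for mutants 1 to 5 and then controls 1 to 4. Reg1 holds 46.5% to 57.8% of the Reg counts in mutants and 51.8% to 55.4% in controls, and the Reg2 segment of mutant 4 is larger than in any other library.

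Acinar genes were higher in the same libraries. A list of 39 acinar genes that holds no Reg gene took 16.2%, 27.5%, 26.7%, 26.0% and 15.2% of counts in mutants 1 to 5, against 3.57%, 5.48%, 4.76% and 3.22% in controls 1 to 4. Of its 38 tested members 35 passed as higher and 0 as lower, where 20.6% of all tested genes passed as higher and 11.8% as lower (edgeR quasi-likelihood test, Benjamini-Hochberg adjusted p under 0.05). The list's median log2 fold change was 3.03, against 0.04 over all tested genes. The 6 Reg values lay among those of the acinar genes, since 16 acinar genes had a larger log2 fold change than Reg1 and 1 had a larger one than Reg3d. In bulk RNA fewer cells of a type and less RNA per cell cannot be told apart, and the part of acinar RNA in the Reg levels was not tested.

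Set against the acinar counts, the Reg counts of the groups overlapped. There were 8.47, 27.6, 24.1, 11.5 and 14.1 Reg counts per 100 acinar counts in mutants 1 to 5, against 13.5, 10.9, 19.6 and 11.6 in controls 1 to 4. Mutants 2 and 3 lay above all controls, mutant 1 lay below all of them, and mutants 4 and 5 lay within their range. The acinar sum was nearly equal in mutants 2, 3 and 4, at 8.78-fold, 8.46-fold and 8.11-fold of the control mean, while the Reg sum there was 17.5-fold, 14.8-fold and 6.74-fold. The acinar sum is weighted toward its most abundant genes, and single members departed from it in both directions. In mutants 2, 3 and 4 its most abundant gene, Amy2a5, had 58945, 68214 and 89672 CPM, while Pnliprp1 had 16925, 14082 and 5630 CPM. Over all 5 mutants the Reg sum was 9.07-fold and the acinar sum 6.64-fold the control mean, and without mutants 2 and 3 the values were 4.36-fold and 5.31-fold. Without these libraries the log2 fold change of Reg1 was 1.97 and of Reg3b 1.94, against an acinar median of 2.54, while Reg3a stood at 2.83 and Reg2 at 2.70.

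**Figure D3:**
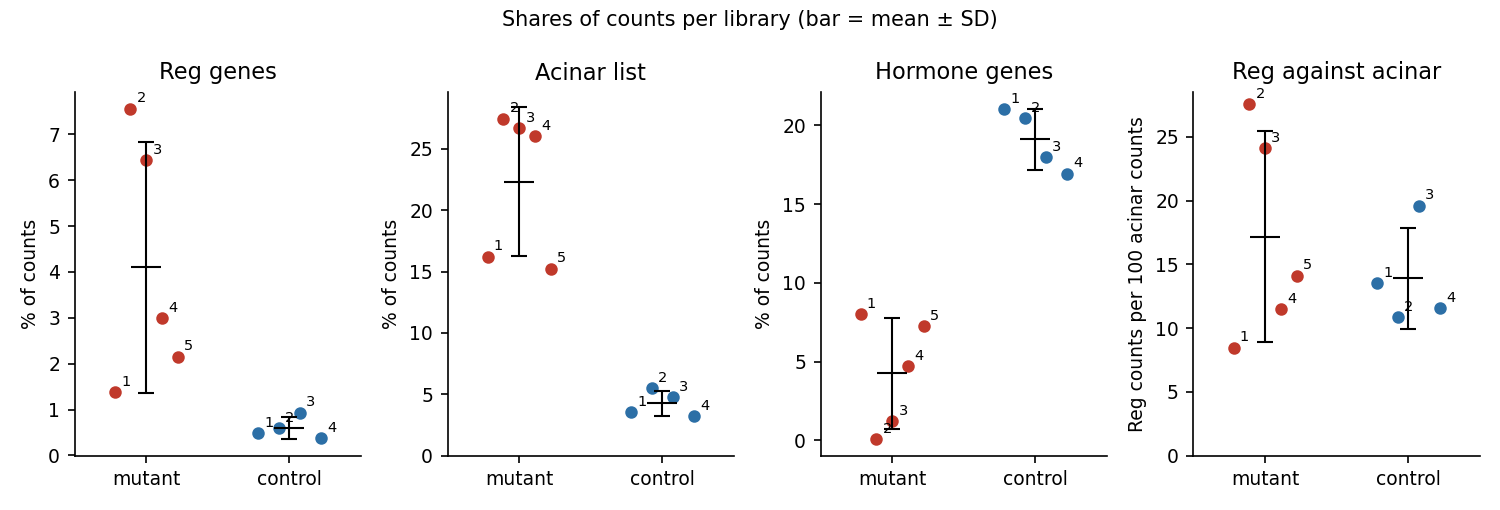
Share of all counts held by the Reg genes, the acinar list and the hormone genes, and Reg counts per 100 acinar counts, per library, with mutants (red) left of controls (blue), replicate numbers, and bars for mean and SD. The Reg and acinar shares of the groups do not overlap, and the Reg counts per 100 acinar counts do, with mutants 2 and 3 at 27.6 and 24.1.

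The members differed from one another within a library. In mutant 5 they lay closest together, with a mean log2 change from the control mean of 1.92 and an SD over members of 0.17, and the acinar sum stood at 1.92. In mutant 1 the mean was 1.28 with an SD of 0.22, and every member lay below the acinar sum of 2.01. In mutants 2 and 3 every member lay above the acinar sums of 3.13 and 3.08, with Reg3d highest at 4.78 and 4.62 and Reg3a lowest at 3.51 and 3.34. Mutant 4 spread them most, with an SD of 0.69, and there Reg3a, Reg2 and Reg3d, at 4.08, 3.74 and 3.60, lay above the acinar sum of 3.02 while Reg1, Reg3b and Reg3g, at 2.55, 2.49 and 2.74, lay below it.

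**Figure D4:**
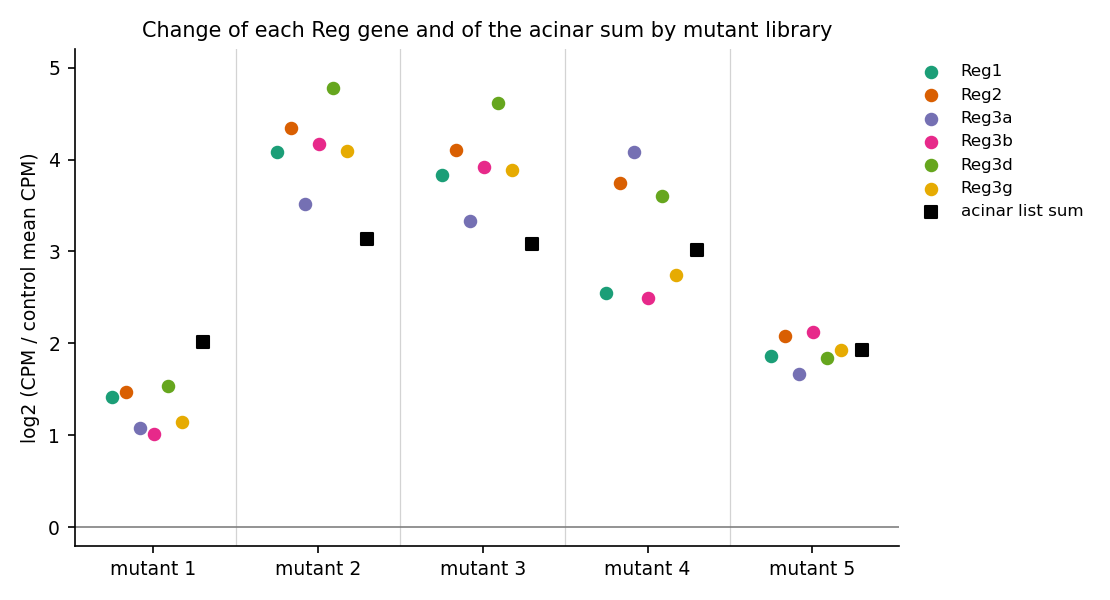
Log2 ratio of each Reg gene's CPM to its control mean in the 5 mutant libraries (coloured points), with the sum of the acinar list (black squares). All 6 genes lie above the acinar sum in mutants 2 and 3 and below it in mutant 1, and in mutant 4 the genes split, with Reg3a at 4.08 and Reg3b at 2.49. The sum is weighted toward the most abundant acinar genes.

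Islet hormone transcripts held a lower share of counts in each mutant than in any control, but the single genes did not pass in edgeR. The genes for insulin (Ins1, Ins2), amylin, glucagon, somatostatin, pancreatic polypeptide and peptide YY took 7.99%, 0.0691%, 1.21%, 4.70% and 7.27% of counts in mutants 1 to 5, against 21.0%, 20.5%, 18.0% and 16.9% in controls 1 to 4. Of these 7 genes 0 passed in edgeR (log2 fold changes from -2.20 to -1.68, edgeR adjusted p from 0.0851 to 0.154), with 1 at an unadjusted p under 0.05, while DESeq2 passed 6 and limma-voom 1. In edgeR 1 passed without mutant 1, 6 passed without mutant 2 and all 7 without mutants 2 and 3. With all libraries 3 of 12 tested beta cell markers passed in edgeR as lower and 0 as higher. Of 10 tested markers of other islet endocrine cells 4 passed as lower and 0 as higher. Over all tested genes 11.8% passed as lower and 20.6% as higher. In every mutant the acinar share was above the hormone share, and in every control it was below. The mutant libraries ran from the highest Reg share to the lowest in the order 2, 3, 4, 5 and 1, which is also their order from the lowest hormone share to the highest. Pdx1 was lowest in mutants 2 and 3, with 15.6, 4.18, 7.13, 17.8 and 19.9 CPM in mutants 1 to 5, against 36.0, 32.0, 23.8 and 26.2 CPM in controls 1 to 4. It passed with a log2 fold change of -1.18 (edgeR adjusted p = 0.0461), a call that ended when any control, mutant 1 or mutant 3 was left out (highest edgeR adjusted p = 0.113).

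Markers of other cell types were read beside the Reg levels, and their part in those levels was not tested. The intestinal list, 15 measured genes of a tissue in which Reg3b and Reg3g are strongly expressed, held 0.00143% to 0.00310% of counts in mutants and 0.00226% to 0.00642% in controls, and Cdx1, Alpi, Sis and Gm11062 were at 0 in all 9 libraries. Ductal genes held 1.55% to 2.52% of counts in mutants and 0.465% to 1.60% in controls, and of 16 tested members 6 passed as higher and 2 as lower, against 20.6% and 11.8% of all tested genes. The macrophage and myeloid list held 0.0301% to 0.0524% in mutants and 0.00773% to 0.0541% in controls, and its groups overlapped. Its most abundant gene was Cd14, with 207 to 529 CPM in mutants and 37.9 to 421 in controls. C1qa, the next, was lower in every mutant, with 0.539 to 13.0 CPM in mutants and 14.3 to 27.2 in controls. Of the 10 tested members of this list 0 passed as higher and 0 as lower. The list of T cells, innate lymphoid cells and B cells held 0.00111% to 0.00351% in mutants and 0.00132% to 0.00298% in controls. Reg4, the outlying member of the family on chromosome 3, had 7, 2, 2, 6 and 6 counts in mutants 1 to 5, against 0, 13, 9 and 1 counts in controls 1 to 4, too few to pass the filter.

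Genes closest to each member in pattern were ranked by the root mean square difference of log2 CPM over the 9 libraries, each gene taken relative to its own control mean. For Reg1 the nearest gene of all was Reg3g, at 0.19, and the nearest outside the family was Erp27, which encodes an endoplasmic reticulum protein of the pancreas, at 0.21. Erp27 had 52.8, 372, 321, 124 and 87.6 CPM in mutants 1 to 5, against 12.3, 24.0, 25.1 and 13.6 CPM in controls 1 to 4. It stood among the 5 nearest genes of 5 members, and the trypsin gene Try10 among those of 4. For Reg3b the nearest outside the family were Itih4, Erp27 and the lipase-related gene Pnliprp1, at 0.29, 0.32 and 0.36. For Reg3a the nearest was Cuzd1, a zymogen granule protein gene, at 0.38, which had 105, 378, 324, 339 and 107 CPM in mutants 1 to 5, against 30.1, 45.1, 40.9 and 17.5 CPM in controls 1 to 4. The trypsinogen gene Prss3 and the surface antigen gene Ly6a, also near Reg3a, were highest in mutant 4, at 742 and 649 CPM. Of the 17 different genes found in this way 7 belong to the acinar list. The distance includes the rise over controls on which the members were chosen, and 35 of the 38 tested acinar genes passed as higher. The share of acinar genes among the nearest was thus in part fixed in advance, and nothing is read from it. The acinar list does not hold every gene of the exocrine pancreas, and Erp27 is not on it. For 4 members no gene outside the family was as near as their closest fellow member.

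Genes of the pathway known to induce Reg3 genes were called in both directions. Of 37 genes of IL-6, IL-22 and STAT3 signalling 31 were tested, of which 5 passed as higher and 8 as lower. That is 41.9% in either direction against 32.4% of all tested genes, 20.6% higher and 11.8% lower. The list's median log2 fold change was -0.18. The ligand gene Il6 fell (log2 fold change -2.60, edgeR adjusted p = 0.0183), with 13, 2, 7, 32 and 17 counts in mutants 1 to 5, against 45, 29, 162 and 164 counts in controls 1 to 4, a range in which mutant 4 and control 2 overlapped. Il22 had 38, 0, 9, 2 and 2 counts in mutants 1 to 5, against 7, 2, 1 and 5 counts in controls 1 to 4, and was not tested. The IL-22 receptor gene Il22ra1 rose, with 6.05, 23.2, 16.4, 7.02 and 10.2 CPM in mutants 1 to 5, against 2.19, 2.05, 3.04 and 2.91 CPM in controls 1 to 4 (log2 fold change 2.29 ± 0.43, SE, edgeR adjusted p = 0.00561). Its highest libraries were mutants 2 and 3, as for most Reg genes. The receptor genes Il6ra and Il6st (gp130) did not pass, with log2 fold changes of -1.25 (edgeR adjusted p = 0.0728) and 0.71 (edgeR adjusted p = 0.101), although Il6ra passed in DESeq2, in limma-voom, and without mutant 1 or mutant 2.

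Stat3 itself fell. It had 292, 182, 193, 205 and 225 CPM in mutants 1 to 5, against 505, 474, 504 and 577 CPM in controls 1 to 4, which gives a log2 fold change of -1.23 ± 0.17 (SE; edgeR adjusted p = 0.00206). Socs3, a feedback inhibitor that STAT3 induces, fell to 10.5 ± 2.77 CPM in mutants, against 24.0 ± 6.46 in controls (edgeR adjusted p = 0.00959). Cebpd, a C/EBP transcription factor gene that STAT3 induces, fell by 1.73 on the log2 scale, and Bcl3, an IkB family coactivator gene, by 1.60 (edgeR adjusted p = 0.00114 and 0.00863). The growth regulator gene Myc rose by 1.70 on the log2 scale (edgeR adjusted p = 0.00796). The hormone share was lower and the acinar share higher in the same mutant libraries, and their part in these changes was not tested. The count of 5 higher members was 3 without control 1 or mutant 2, and 2 without control 2, mutant 3, or mutants 2 and 3 together.

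Acute phase and acinar injury genes were split. Of 30 tested members 9 passed as higher and 4 as lower, with a median log2 fold change of 0.22. That is 43.3% in either direction against 32.4% of all tested genes, 20.6% higher and 11.8% lower. Clu, the clusterin gene, rose to 42483 ± 9123 CPM in mutants, against 7428 ± 3634 in controls (edgeR adjusted p = 0.00397), a level in CPM above that of Reg1 in every mutant. The trefoil factor genes Tff1, Tff2 and Tff3, which encode mucosal repair peptides, rose by 2.30, 2.90 and 2.28 on the log2 scale (edgeR adjusted p = 0.00336, 0.00178 and 0.00807), and the calcium-binding protein gene S100a11 by 1.41 (edgeR adjusted p = 0.00663). Lcn2, the iron-scavenging lipocalin that is induced beside Reg3 genes in inflamed epithelia, had 60.8, 519, 455, 222 and 181 CPM in mutants 1 to 5, against 96.0, 86.5, 338 and 448 CPM in controls 1 to 4. Its groups overlapped (log2 fold change 0.25, edgeR adjusted p = 0.787), and within the mutants its order by library was the same as that of Reg1. The 4 lower members were 2 without control 3, mutant 3, or mutants 2 and 3 together.

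Other secreted defence proteins of epithelia were called in either direction about as often as genes at large. Of 21 tested members 6 passed as higher and 1 as lower, with a median log2 fold change of 0.36. That is 33.3% in either direction against 32.4% of all tested genes, 20.6% higher and 11.8% lower. Dmbt1, a scavenger receptor of mucosal secretions, had 1580, 13527, 11255, 3753 and 2382 CPM in mutants 1 to 5, against 528, 411, 615 and 849 CPM in controls 1 to 4 (log2 fold change 3.44, edgeR adjusted p = 0.00694), and its order over the mutants was also that of Reg1. The galectin gene Lgals9 and the zymogen granule lectin gene Zg16 rose by 2.54 and 2.89 (edgeR adjusted p = 0.0015 and 0.00256), and both were highest in mutant 4, as Reg3a was. Muc1, a membrane mucin, and Sprr1a, a cornified envelope protein, rose by 2.21 and 2.27 (edgeR adjusted p = 0.00435 and 0.00286). The member that fell was Chi3l1, a chitinase-like lectin gene (log2 fold change -1.26, edgeR adjusted p = 0.0239), a call lost without control 4, mutant 3, mutant 5, or mutants 2 and 3 together. Zg16 also belongs to the acinar list.

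Extl3, which encodes an exostosin-like protein reported as a receptor of Reg proteins, had 13.8, 32.1, 37.2, 10.1 and 22.7 CPM in mutants 1 to 5, against 9.57, 6.15, 5.97 and 9.28 CPM in controls 1 to 4. It rose by 1.58 ± 0.39 on the log2 scale (SE; edgeR adjusted p = 0.0149), and did not pass without mutants 2 and 3 (log2 fold change 0.94, edgeR adjusted p = 0.0682). The lowest mutant, mutant 4, was barely above the highest control. Egfr and Sdc1, the epidermal growth factor receptor and syndecan 1 genes, rose by 1.14 and 1.71 (edgeR adjusted p = 0.00804 and 0.00655). Ext1, Ext2, Extl2 and Sdc4 did not pass in edgeR. Of the 9 genes on this list of reported receptors and partners 7 were tested, of which 3 passed as higher and 0 as lower. That is 42.9% in either direction against 32.4% of all tested genes, 20.6% higher and 11.8% lower. The list's median log2 fold change was -0.05.

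**Figure D5:**
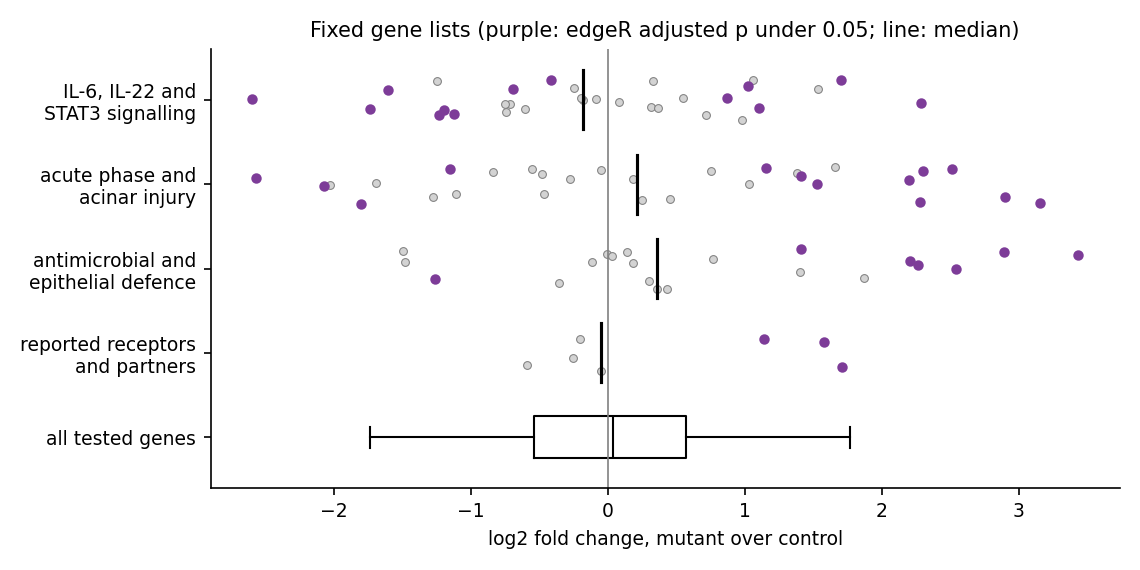
Log2 fold change, mutant over control, of each tested gene in the 4 pathway lists, with genes past an edgeR adjusted p of 0.05 in purple and a black line at each list's median, above a box of all tested genes (quartiles and median, whiskers from the 5th to the 95th percentile). The medians lie at -0.18 for IL-6, IL-22 and STAT3 signalling, 0.22 for acute phase and injury genes and 0.36 for defence proteins, and each of these lists holds genes called in both directions.

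Of all genes called, 63.6% were higher in mutants, and 51.8% with scaling by relative log expression (RLE), which shifted the median log2 fold change by -0.10. Under the 17 other settings tried for each of the 6 Reg genes the sign stayed positive. Leaving out libraries could not turn it, since each mutant lay above each control, so this adds no support. The lowest log2 fold changes of Reg1, Reg3b and Reg3g, 1.97, 1.94 and 2.03, were those without mutants 2 and 3.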

How the data were processed

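Polyadenylated RNA of mouse islets was measured in 5 mutant and 4 control libraries, grouped by sample title. The authors deposited raw counts, whole numbers listed by gene symbol, with no normalization. RNA was extracted with a column kit and made into libraries with a low-input NEBNext kit, per the labels' protocols. The tools named for the project, without roles, are STAR, RSEM, Bowtie2, HOMER, DESeq2, R 4.1.0 and single-cell software, with build mm10, per the submitters' processing notes. The aligner, counter, annotation and strand setting of this table are not given in the sources used here. Totals ran from 7186462 to 9163253 counts in mutants and from 6092010 to 7375376 in controls. No 2 libraries of a group agreed within sampling noise, and no row lacked a gene name.

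The members, gene lists and alternatives were chosen with earlier results of these data known. Genes kept by filterByExpr were tested, mutant over control, with the quasi-likelihood method of edgeR 4.0.16 in R 4.3.3 on TMM-scaled counts, with Benjamini-Hochberg adjustment over all 12402 tested genes and a threshold of 0.05, two-sided. The SE of a log2 fold change is its unshrunken size over the root of the F statistic. CPM rest on TMM library sizes, with a prior count of 2 on the log2 scale. Of 267 list entries 265 were found, 5 of them by a synonym. Named genes were the 6 members, Reg4, Extl3, Pdx1, up to 5 genes of lowest p per pathway list, a few fixed pathway genes, up to 3 abundant markers per cell type and the 5 nearest genes per member, of which the text names part. Il22, Nupr1, Chi3l1, Ext1 and Ext2 lie outside this rule and were named after their values were seen. Alternatives were RLE scaling, scaling without hormone, acinar and Reg genes, no filter, a filter of 1 CPM in 4 libraries, DESeq2 1.42.0, limma-voom with quality weights (limma 3.58.1), leaving out each library, leaving out mutants 2 and 3, and blocking on replicate number. The edgeR pipeline was also run on simulated counts in which few genes changed, as many up as down. That simulation does not cover the many and uneven changes between these libraries.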

Additional observations from a re-analysis of the deposited data

Results flagged for a closer look

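Each group of 4 or 5 libraries was searched for a library far from the others, in the log2 CPM of each Reg gene, in each gene's share of the Reg counts, in the summed Reg share and in the Reg counts per 100 acinar counts. Of 28 such groups 3 held one, and chance alone marks about 1 in 20 groups. Reg2 held 19.2% of the Reg counts in mutant 4, against 11.2% in the next mutant library. Reg3a held 1.93% of the Reg counts in mutant 4, against 0.658% in the next. Reg3g held 11.9% in mutant 1, the lowest of the mutants, against 13.0% in the next. Shares of 1 sum are not independent of each other.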

How the results depend on the processing

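The summed Reg level had a log2 ratio of mutant to control of 3.18 with all libraries. It was 2.74 to 3.45 when 1 library was left out and 2.07 without mutants 2 and 3, each with its own scaling. Its direction held in all 12 other settings, but leaving out libraries could not turn it, since each mutant lay above each control. Of the other values of the counts of called genes 22 differed by more than 1.5 times, and all 102 other log2 fold changes of the 6 Reg genes, as well as those of their sum, stayed within the wide spread between libraries. Of the genes called, 2560 were higher and 1462 lower. DESeq2 called 2555 lower and limma-voom 2294 lower. Leaving out 1 library gave 1579 to 2702 higher and 699 to 1865 lower, with the fewest higher without mutant 3 and the fewest lower without control 1, and without mutants 2 and 3 there were 1355 higher. DESeq2 put 49.6% of its calls higher, against 63.6% in edgeR. With the replicate number as a block edgeR called 1658 higher and 774 lower, and 3 members of the STAT3 list higher. The correlation of same-numbered deviations over genes was 0.05, -0.02, 0.18 and -0.05, which shows no clear pairing by number. Because the mutant libraries differ widely from each other, this check cannot settle whether the libraries were paired. The block also lost Extl3 (edgeR adjusted p = 0.0992) and passed Il6ra (log2 fold change -1.77, edgeR adjusted p = 0.0396). With 1 library left out the STAT3 list had 2 to 6 members higher and 6 to 9 lower, the acute phase and injury list 8 to 10 and 2 to 5, and the antimicrobial list 6 to 8 and 0 to 1. Without mutants 2 and 3 the STAT3 list had 2 higher, the injury list 2 lower and the antimicrobial list 0 lower. Lcn2, which did not pass, changed sign, with log2 fold changes from -0.16 to 0.73 when 1 library was left out and -0.73 without mutants 2 and 3, as did Sdc4 (-0.40 to 0.0199) and Spp1 (-0.83 to 0.24) with 1 library left out. The cause of these changes was not tested. Depth did not limit the Reg genes, the lowest of which had 45 counts, but it limits Il6, Il22 and Reg4.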

Other observations

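Beyond the comparisons above, 3 genes of the defence and injury lists differed in which mutant library held their highest level, and they are given here after their values were seen. Zg16 had 167, 97.3, 124, 419 and 184 CPM in mutants 1 to 5, against 20.1, 34.4, 28.3 and 23.8 CPM in controls 1 to 4, so that mutant 4 was highest and mutants 2 and 3 were the lowest mutants. Sprr1a had 1328, 633, 789, 1123 and 1862 CPM in mutants 1 to 5, against 185, 177, 329 and 262 CPM in controls 1 to 4, with mutant 5 highest. The transcriptional stress regulator gene Nupr1 had 5654, 18349, 17042, 7877 and 7058 CPM in mutants 1 to 5, against 1707, 4333, 2634 and 1061 CPM in controls 1 to 4, and followed the order of Reg1 over the mutants.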
